A study of Mus musculus with 6 samples.

Results

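The contacts described here join the flank beyond the 3′ end of the mouse immunoglobulin heavy chain (Igh) locus to the array of V genes. They are the 5C primer pairs with the midpoint of one restriction fragment in the flank (chromosome 12, 114339456 to 114420752, mm9) and the midpoint of the other in the V array (114809751 to 117190694). This rule used positions and no read counts, and it gave 1128 of the 12656 forward-reverse primer pairs of the locus. The flank held 16 fragments, 8 with a forward and 8 with a reverse primer. The V array held 141 fragments, 70 forward and 71 reverse, which cover 526.9 kb of its 2381 kb. A pair needs 1 forward and 1 reverse primer, so each V fragment could be read with 8 of the 16 flank fragments. Pairs share their fragments and are not independent replicates.

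The Igh locus carries, from one end to the other, the V genes, the D and J segments, the constant genes and a 3′ regulatory region of several enhancers, which drives expression and class switching in mature B cells. Before V(D)J recombination the locus contracts in pro-B cells, and loops between sites bound by the architectural factor CTCF bring V genes towards the D and J segments. A cluster of CTCF sites marks the 3′ end of the locus, and beyond it lie genes that are not immunoglobulin genes. In the RefSeq order of mouse assembly GRCm38.p6 the protein-coding genes beyond Igha, the last constant gene, are Tmem121, Tedc1, Crip1, Gm30599 and Crip2, of which Crip1 and Crip2 encode LIM domain proteins. Which of them lie on the 16 fragments was not determined here, and V genes are given by fragment and position because no mm9 annotation was used.

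5C counts ligation junctions between HindIII fragments with a pool of primers, so a read count for a pair is a measure of how often its fragments were joined in crosslinked nuclei. The reads pool all cells and alleles of a library, so a contact present in more cells and a contact that is more frequent per cell cannot be told apart. The study aimed to map such contacts over the locus in 3 cell types, with 2 libraries of each, described as biological replicates.

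Murine embryonic fibroblasts (MEF), a cell type outside the B lineage with no further genotype in the labels, were taken from culture. Pro-B cells came from the bone marrow of Rag2-deficient mice, which cannot cut V, D and J segments, and had been grown with interleukin IL7 for 4 days. Resting B cells were the CD43- fraction of spleen, isolated with magnetic beads and not cultured; the labels give no allele or agent for them. Their expressed Igh alleles have undergone V(D)J recombination, which deletes the DNA between the joined segments. On those alleles this shortens the distance from the flank to the V genes that remain. The labels do not give the state of the other alleles. Positions and distances below are those of the unrearranged reference. Cell type, tissue, culture and genotype change together between the groups and cannot be told apart, and 5C gives no expression with which to check the labelled cell types.

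The libraries held 20580457 to 24191175 valid read pairs. Igh primer pairs made up 91.3% to 93.4% of them, and pairs of the flank with the V array 0.214% to 1.148% of the Igh reads. Pro-B replicate 2 stood apart from the other libraries: 1641 of the 12656 Igh pairs had no read in it, against 376 to 622 elsewhere. Among the flank's pairs with the V array, 35.5% had at most 3 reads in that library while 36.3% had more than 100. Across the 1128 pairs Pearson's r of log counts between replicates was 0.495 (pro-B), 0.644 (MEF) and 0.824 (resting B), and pro-B replicate 1 correlated better with each MEF (0.585 and 0.61) and resting B library (0.617 and 0.632) than with its own replicate. These correlations share primers and distances across pairs and are a description.

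The V array was read in 4 stretches, going away from the flank. The proximal V genes (114809751 to 115096374) held 19 fragments and 152 pairs with the flank, the middle V genes (115139357 to 115709849) 51 and 408, the near distal V genes (115723372 to 116439886) 43 and 344, and the far distal V genes (116539430 to 117190694) 28 and 224. The pairs spanned 401.8 to 2850 kb. Reads were summed over the pairs of a stretch and are given as CPM, the usual normalised count relative to the library's Igh reads after TMM scaling between libraries.

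With the proximal V genes the summed level was 670.0 and 899.5 CPM in MEF (replicates 1 and 2), 1349 and 1984 (pro-B) and 2603 and 2706 (resting B). With the middle V genes it was 879.7 and 1016 (MEF), 1288 and 2169 (pro-B) and 2316 and 2427 (resting B). In both stretches MEF was lowest and resting B cells highest, and no library of one cell type overlapped with another. With the near distal V genes the level was 1017 and 881 CPM (MEF), 1076 and 2292 (pro-B) and 2713 and 3189 (resting B). With the far distal V genes it was 374 and 469 (MEF), 579 and 817 (pro-B) and 2062 and 1931 (resting B). The same order held at the far end without overlap, and there the resting B libraries stood farthest above the others. The pro-B replicates differed by more than the MEF replicates in every stretch, and in the near distal stretch pro-B replicate 1 lay just above MEF replicate 1.

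**Figure D1:**
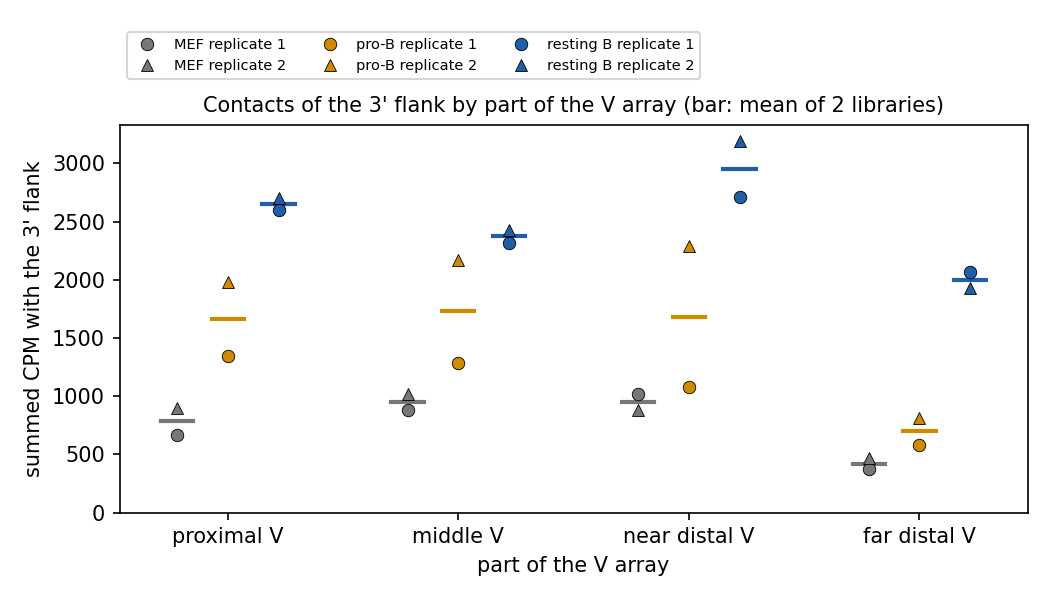
Summed reads of the 3′ flank with each of the 4 stretches of the V array, in CPM of Igh reads (linear axis). Points are single libraries (circle replicate 1, triangle replicate 2), bars the mean of 2 libraries. Resting B libraries lie highest in all 4 stretches, with far distal sums of 2062 and 1931 against 579 and 817 (pro-B). The stretches hold 152, 408, 344 and 224 pairs from proximal to far distal, so sums are compared within a stretch only. Per pair, the resting B mean was 17.1 and 17.8 CPM (proximal) against 9.21 and 8.62 (far distal). The medians were 6.07 and 6.52 against 5.65 and 5.05.

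The first comparison asked how resting B cells, with a rearranged and expressed locus, differ from cells that do not use it. Relative to MEF, the flank's reads rose in resting B cells with every stretch of the V array, with the largest fold at the far distal V genes unless the trend with distance is removed (log2 fold 2.24 ± 0.30 SE, adjusted p = 0.000425, edgeR quasi-likelihood test with Benjamini-Hochberg adjustment over 55 region pairs). The proximal V genes followed with 1.76 ± 0.29 (adjusted p = 0.00213 by edgeR), the near distal with 1.64 ± 0.36 and the middle with 1.32 ± 0.30 (both adjusted p = 0.00838 by edgeR). All 4 sums were called, where 32.7% of the locus's region pairs were called higher and 16.4% lower. The flank's reads with the constant genes (2.41) and the D-J segments (2.53) rose too, while those within the flank (0.15, adjusted p = 0.742 by edgeR) and with the flank beyond the V array (0.15, adjusted p = 0.776 by edgeR) did not pass. Without MEF replicate 1 or 2 the calls of the middle (adjusted p = 0.101 and 0.0847 by edgeR) and near distal V genes (0.0688 and 0.123) were lost, and those of the proximal and far distal V genes were kept whichever library was left out.

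Reads of the same fragments with the gene desert on chromosome 5 moved with this result. Such reads join different chromosomes and carry no Igh contact. The 16 flank fragments held 0.692% and 1.46% (MEF), 1.59% and 2.05% (pro-B), and 2.27% and 2.63% (resting B) of all Igh reads with the desert. Desert folds here and below compare each fragment's share of its library's Igh reads with the desert. They describe composition and not a change of the total, which was 703564 and 462793 (MEF) and 622636 and 702196 (resting B). All 16 flank fragments had a log2 fold above 0 for desert reads in resting B cells over MEF (median 1.19), as did 119 of the 141 V fragments (median 0.79) and 62 of the other 68 Igh fragments (median 1.16). With each fragment's desert reads as an offset, an alternative added after the data were seen, the folds were 1.45 (proximal, adjusted p = 0.0789 by edgeR), 1.01 (middle, 0.136), 1.23 (near distal, 0.129) and 1.85 (far distal, 0.0309), so only the far distal call was kept. What the desert reads contribute to the rise was not tested further.

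Fragment by fragment, 107 of the 141 V fragments rose in resting B cells over MEF and none fell, at an adjusted p under 0.05 in edgeR over the 209 Igh fragments outside the flank. Of those 209 fragments 75.6% were called higher, so the share among V fragments is that of the locus as seen from the flank. The called fragments were 17 of 19 in the proximal, 32 of 51 in the middle, 35 of 43 in the near distal and 23 of 28 in the far distal stretch, and 140 of the 141 had a fold above 0. The count was 33 without MEF replicate 1, 51 without MEF replicate 2, 68 without resting B replicate 1 and 50 without resting B replicate 2, and 37 with the desert offset. For these alternative counts the share over the 209 fragments was not taken. Both resting B libraries lay above both MEF libraries in 134 of the 141 fragments, against 94.3% of all fragments read with the flank. The exception in direction was FOR 367 (115693734 to 115694885, middle V), with 72.1 and 21.5 CPM (MEF) against 12.4 and 13.5 (resting B); it was picked out after its values were seen and did not pass the test.

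Fragment FOR 671 in the far distal V genes (116768031 to 116772149, 4119 bp) had the smallest p of the array. Its reads with the flank were 62.2 and 96.6 CPM (MEF), 162 and 175 (pro-B) and 626.5 and 518 (resting B). The 3 cell types did not overlap, and the log2 fold of resting B cells over MEF was 2.85 ± 0.40 (adjusted p = 0.000473 by edgeR). It was also the fragment of highest mean level in its stretch. Its reads with the rest of the Igh locus did not rise in parallel (log2 fold -0.08), while its desert reads had a fold of 1.46. The difference between these folds was not tested.

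FOR 634 (116640887 to 116643838), also far distal, stood at 8.90 and 15.0 CPM (MEF), 24.0 and 31.0 (pro-B) and 91.5 and 94.9 (resting B). REV 705 (116875021 to 116877871) stood at 5.41 and 4.49 CPM (MEF), 13.2 and 8.47 (pro-B) and 40.4 and 39.7 (resting B). Both were in the same order as FOR 671 with no overlap, with log2 folds over MEF of 2.96 ± 0.46 and 3.02 ± 0.50 (adjusted p = 0.000863 and 0.000872 by edgeR). FOR 611 (116559256 to 116561326), near the start of the far distal stretch, had another pattern: 20.9 and 32.3 CPM (MEF), 17.0 and 21.6 (pro-B) and 144 and 131 (resting B). MEF and pro-B cells overlapped there, and resting B cells lay above both (2.37 ± 0.41 over MEF, adjusted p = 0.00118; 2.83 ± 0.42 over pro-B cells, adjusted p = 0.00113, both by edgeR). FOR 611 lost both calls with the desert offset (1.80, adjusted p = 0.0682, and 0.08, adjusted p = 0.965, by edgeR), whereas FOR 671, FOR 634 and REV 705 kept theirs over MEF.

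The fragments that led the other stretches by level were FOR 126 (proximal, 114823610 to 114829182), FOR 204 (middle, 115139357 to 115145663) and REV 545 (near distal, 116342486 to 116353413). FOR 126, close to the start of the array, had the most reads with the flank of the 141 V fragments in every library, at 297 and 358 CPM (MEF), 531 and 799 (pro-B) and 1086 and 1150.0 (resting B). The groups did not overlap, and its log2 fold of resting B cells over MEF was 1.77 ± 0.38 (adjusted p = 0.00263 by edgeR). REV 545 had 277 and 144 CPM (MEF), 144 and 498 (pro-B) and 407 and 639 (resting B). Pro-B replicates spanned the MEF range there and overlapped with resting B cells, and its fold over MEF of 1.31 ± 0.57 did not pass (adjusted p = 0.0537 by edgeR). FOR 204 passed (1.30 ± 0.42, adjusted p = 0.0178 by edgeR) and lost its call without MEF replicate 1 (0.90, adjusted p = 0.111) or either resting B replicate (1.20 and 1.38, adjusted p = 0.0976 and 0.0726, by edgeR). At the other end of the scale FOR 451 (near distal, 115941646 to 115951304) had at most 3 reads with the flank in any library and REV 300 (middle, 115465028 to 115466934) at most 4, so nothing can be said of their change.

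**Figure D2:**
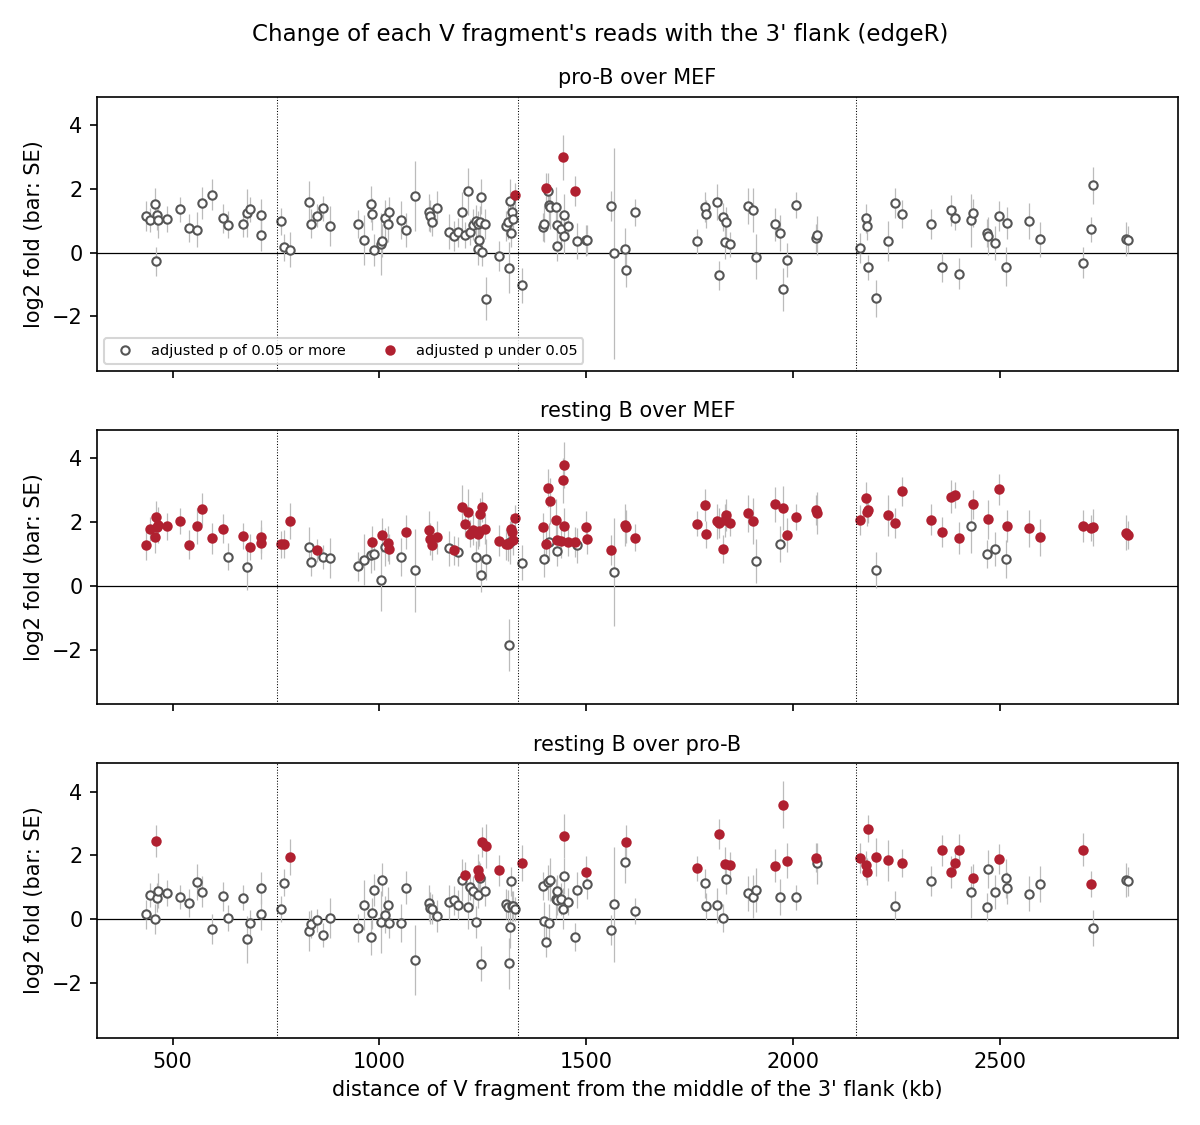
Log2 fold of each V fragment's reads with the 3′ flank (141 points, edgeR, bars SE) against its distance from the middle of the flank in kb, for the 3 comparisons. Filled red points passed an adjusted p of 0.05: 4 in pro-B cells over MEF, 107 in resting B cells over MEF and 35 in resting B cells over pro-B cells. Dotted lines separate the 4 stretches of the V array.

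The second comparison asked whether the flank already meets the V genes more often in pro-B cells, where the locus is unrearranged. Summed pro-B levels lay between those of MEF and resting B cells. Only the proximal V genes passed the test, with a log2 fold over MEF of 1.09 ± 0.29 (adjusted p = 0.0479 by edgeR), where 9.09% of region pairs were called higher. The median pair overlapped between pro-B and MEF libraries in every other stretch. For the far distal V genes it had 1.41 and 0.40 CPM (pro-B) against 1.09 and 1.47 (MEF). With equal weight for each pair, the middle, near distal and far distal folds were 0.17, 0.23 and -0.085 (adjusted p = 0.601, 0.498 and 0.807 by limma). The middle (0.87, adjusted p = 0.0801), near distal (0.83, 0.158) and far distal V genes (0.73, 0.12) did not pass in edgeR. The proximal call was lost without either MEF replicate (adjusted p = 0.418 and 0.135 by edgeR), without either resting B replicate, which enter only the estimate of spread (0.0905 and 0.0885), and with each pair given equal weight (0.31, adjusted p = 0.44 by limma). Without pro-B replicate 1 the pro-B arm held 1 library, its spread was taken from MEF and resting B cells, and all 4 stretches passed in edgeR, at 1.34 (adjusted p = 7.92e-06), 1.19 (2.94e-05), 1.27 (8.79e-06) and 0.95 (0.00112) from proximal to far distal. Without pro-B replicate 2 the middle, near distal and far distal V genes did not pass (0.44, 0.18 and 0.46, adjusted p = 0.2, 0.659 and 0.191 by edgeR). In desert reads 14 of the 16 flank fragments and 135 of the 141 V fragments lay above 0 in pro-B cells over MEF, with medians of 0.98 and 1.33, and so did 60 of the other 68 Igh fragments (median 1.08). Pro-B replicate 1 held few Igh reads with the desert (122047, 0.55% of its valid pairs, against 2.02% to 3.41% in the other libraries). Desert folds and desert offsets that involve pro-B cells rest in part on this thin library.

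Of single V fragments, 4 were called higher in pro-B cells over MEF and none lower, against 4.78% called higher of the 209 fragments read with the flank. Both pro-B libraries lay above both MEF libraries in 78 of the 141 V fragments (49.8% of the 209). The 4 called fragments lie from the end of the middle V genes into the near distal ones: REV 374 (115706727 to 115709849), REV 401 (115780319 to 115786560), REV 418 (115823136 to 115824506) and REV 428 (115848051 to 115855284). REV 374 had 17.6 and 19.5 CPM (MEF), 58.7 and 70.9 (pro-B) and 75.0 and 87.3 (resting B). REV 401 had 6.60 and 9.71 CPM (MEF), 31.3 and 34.8 (pro-B) and 22.3 and 18.0 (resting B). REV 428 had 5.23 and 5.11 CPM (MEF), 20.6 and 18.6 (pro-B) and 12.1 and 14.45 (resting B). Both pro-B libraries lay above both MEF libraries at all 4 fragments, and at REV 401 and REV 428 also above both resting B libraries. The log2 folds over MEF were 1.80 ± 0.39 (REV 374), 2.02 ± 0.47 (REV 401), 2.98 ± 0.70 (REV 418) and 1.92 ± 0.47 (REV 428), with adjusted p of 0.0357, and 0.0386 for REV 428 (edgeR). Reads with the rest of the Igh locus also rose over MEF at REV 401 (0.89) and REV 428 (1.61). They fell there in resting B over pro-B cells (-2.56 and -4.5), so this order was not particular to the flank. The rest-of-locus folds over MEF were 0.16 for REV 374 and -0.895 for REV 418. Differences between these folds were not tested.

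The number of called V fragments changed with the libraries used: it was 0 without either MEF replicate, 1 without either resting B replicate, 5 without pro-B replicate 2 and 74 without pro-B replicate 1. With either pro-B library left out the arm holds 1 library, which is assumed to vary like the other groups. In none of these fits was the share over all fragments read with the flank taken, so the counts cannot be set against the locus. REV 418 showed the largest spread between pro-B libraries, at 7.43 and 30.8 CPM against 1.80 and 3.02 (MEF) and 19.6 and 28.6 (resting B), and its fold was 1.60 (adjusted p = 0.0835 by edgeR) without pro-B replicate 2. The log2 folds of desert reads in pro-B cells over MEF were 2.08 (REV 374), 2.65 (REV 401), 2.49 (REV 428) and 0.995 (REV 418). In pro-B replicate 1 these fragments had 98, 144, 103 and 28 desert reads in the same order. With the desert offset the folds of REV 374, REV 401 and REV 428 with the flank were 1.31, 0.83 and 0.87 and none of the 3 passed in edgeR (adjusted p = 0.0899, 0.369 and 0.336), whereas REV 418 kept its call (3.31, adjusted p = 0.0409 by edgeR).

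The third comparison set rearranged resting B cells against pro-B cells. Of the 4 stretches the far distal V genes passed, with a log2 fold of 1.52 ± 0.29 (adjusted p = 0.00612 by edgeR, with 20% of region pairs called higher and 21.8% lower), and this call was kept whichever library was left out (1.29 to 1.78). The near distal V genes had a fold of 0.81 (adjusted p = 0.0714), the proximal 0.67 (0.0704) and the middle 0.46 (0.203), none past the threshold in edgeR. Those 3 passed without pro-B replicate 2, again with 1 pro-B library and the spread of the other groups, at 1.46 (adjusted p = 3.34e-06), 0.98 (0.00128) and 0.88 (0.00385), and also with each pair given equal weight, at 1.81, 1.49 and 1.26 (adjusted p = 6.66e-05, 0.00102 and 0.00102 by limma). The far distal call was lost after each library's trend with distance was removed (0.41, adjusted p = 0.202 by edgeR) and with the desert offset (0.97, adjusted p = 0.17).

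Of the V fragments 35 were called higher in resting B cells over pro-B cells and none lower, against 36.8% called higher and 0.478% called lower of the 209 fragments. They were 1 of 19 proximal, 7 of 51 middle, 12 of 43 near distal and 15 of 28 far distal fragments. The count was 14 and 11 without resting B replicate 1 or 2 and 77 without pro-B replicate 2, and 1 fragment was called with the desert offset. For these alternative counts the share over the 209 fragments was not taken. Both resting B libraries lay above both pro-B libraries in 91 of the 141 (71.3% of the 209). The proximal fragment was FOR 130 (114838820 to 114840677), at 23.6 and 14.5 CPM (pro-B), 15.1 and 30.9 (MEF) and 106 and 102 (resting B). It lies close to FOR 126, and there, unlike at FOR 126, pro-B cells and MEF overlapped. FOR 346 in the middle V genes (115628291 to 115630212) had 13.0 and 23.3 CPM (pro-B), 14.4 and 21.2 (MEF) and 104.0 and 91.5 (resting B), and FOR 510 in the near distal V genes (116198884 to 116203900) had 8.45 and 7.05, 11.6 and 13.7, and 51.9 and 47.3. At both, resting B cells lay far above the other cell types. The folds over pro-B cells were 2.45 ± 0.49 (FOR 130), 2.43 ± 0.47 (FOR 346) and 2.68 ± 0.47 (FOR 510), with adjusted p of 0.00321, 0.00319 and 0.00184 (edgeR), and all 3 calls were lost with the desert offset (1.10, 1.43 and 2.13).

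Seen along the array, the flank's profile had a negative slope in MEF and pro-B cells and a slope near 0 in resting B cells. The slope of log2 CPM over the 141 V fragments was -0.27 and -0.38 per Mb (MEF), -0.51 and -0.64 (pro-B), and 0.02 and -0.04 (resting B). Each pair of libraries lay together, with no overlap between cell types. The fragments of one library share its depth, and longer fragments had more reads in all libraries (Spearman's rho with length 0.19 to 0.45, n = 141), so the slopes are a description with no test.

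The ratio of far distal to proximal reads tests the same tilt, and library scaling cancels in it. On the log2 scale it was -0.84 and -0.94 (MEF), -1.22 and -1.28 (pro-B) and -0.34 and -0.49 (resting B). It was thus least negative in resting B cells and most negative in pro-B cells, without overlap. The difference of resting B cells from pro-B cells was 0.84 ± 0.14 (adjusted p = 0.0105 by limma over 10 anchors), that from MEF 0.48 ± 0.14 (adjusted p = 0.123), and that of pro-B cells from MEF -0.36 ± 0.14 (adjusted p = 0.301). The first was lost without either resting B replicate (adjusted p = 0.109 and 0.0652 by limma), and its sign turned after the trend with distance was removed (-0.79, adjusted p = 0.186). The 3′ regulatory region (1.26) and the constant genes (1.04) tilted the same way between pro-B and resting B cells (both adjusted p = 0.00876 by limma), so the tilt was not particular to the flank.

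**Figure D3:**
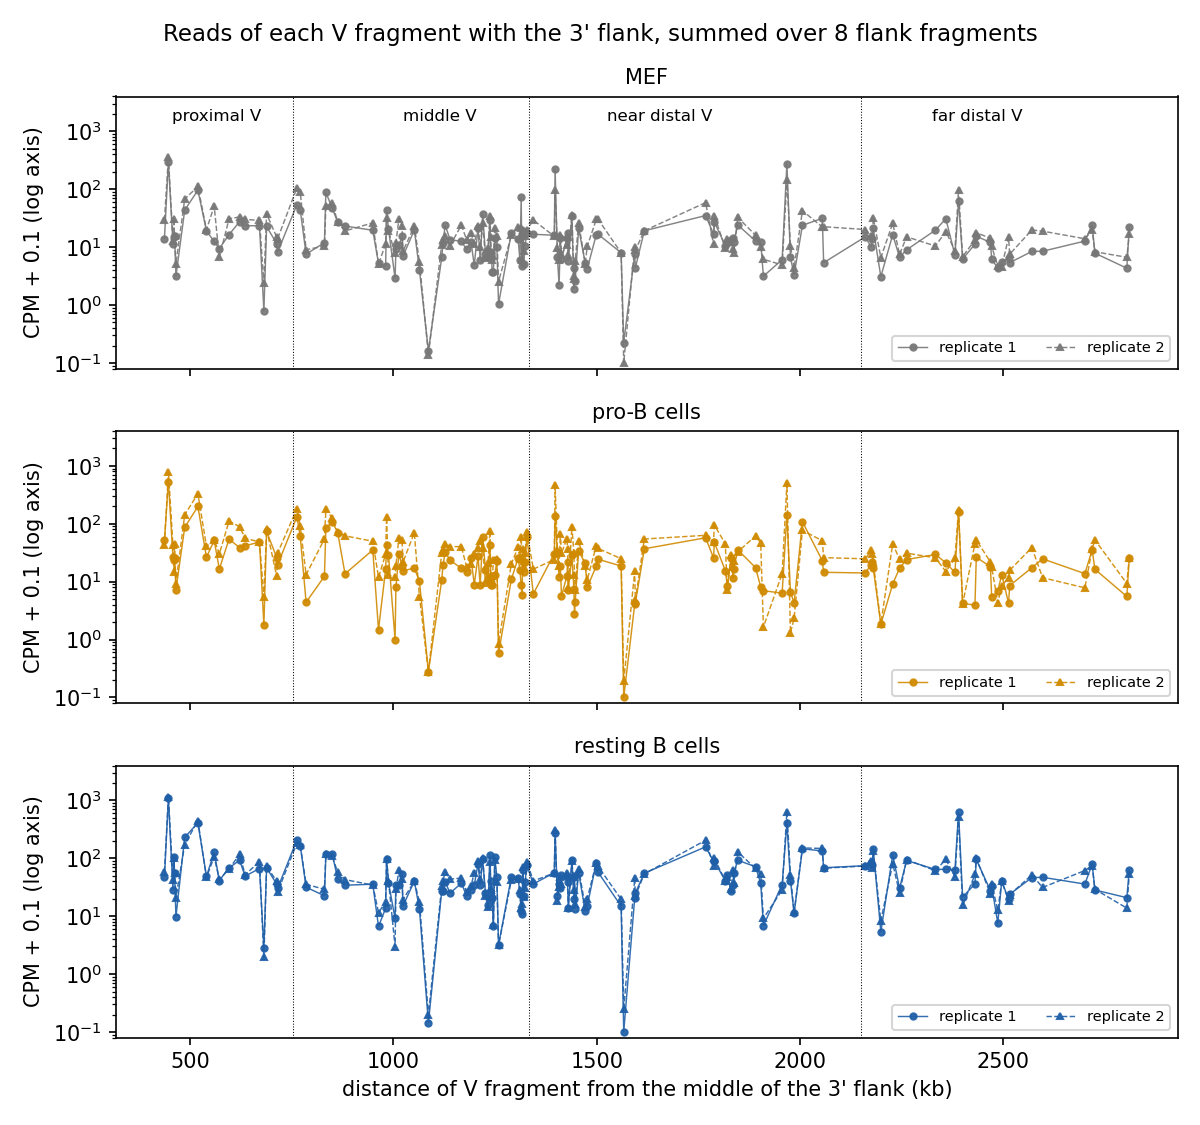
Reads of each V fragment with the 3′ flank in CPM plus 0.1 (log axis) against its distance from the middle of the flank in kb, with a panel per cell type. Circles with solid lines are replicate 1 and triangles with dashed lines replicate 2. The leading fragments FOR 126, REV 545 and FOR 671 stand out in all 3 cell types, and the far distal profile is highest in resting B cells.

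Single primer pairs were sparse: the median pair had 27 and 24 reads (pro-B), 19 and 38 (MEF) and 98.5 and 94 (resting B). Of the 1128 pairs 1077 had enough reads to be tested (at least 10 in at least 2 libraries), and the other 51 are not in the counts that follow. The median log2 fold over the tested pairs was 1.76 in resting B cells over MEF, 0.69 in pro-B cells over MEF and 1.25 in resting B cells over pro-B cells, where the median of all 11940 tested Igh pairs was -0.03, 0.01 and 0.03. A fold above 0 was found for 95.7%, 63.9% and 77.7% of the flank's pairs and for 49.5%, 50.5% and 50.5% of all pairs. The filter kept pairs by their highest libraries, so these medians describe the pairs that passed and not all 1128. Scaling by reads between gene desert fragments, not those between Igh and the desert, shifted all pairs alike in resting B cells over MEF. The median became 2.19 for the flank's pairs and 0.45 for all pairs.

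In resting B cells over MEF 3 of the 1077 pairs rose and none fell in edgeR with adjustment over all 11940 pairs (0.544% called higher and 0.586% lower). All 3 joined FOR 671 to the flank, with REV 4, REV 12 and REV 19 (log2 folds 2.61, 2.78 and 3.14, adjusted p = 0.0481 for each). An unadjusted p under 0.05 in edgeR was found for 254 of the 1077 (23.6%), against 21% of all tested Igh pairs. FOR 671 with REV 4, 2411 kb apart, had 246 and 369 reads (MEF), 690 and 634 (pro-B) and 2185 and 1724 (resting B). The cell types did not overlap. No pair of the flank was called without either MEF or either resting B replicate. More were called without either pro-B replicate, where the fit no longer held the spread between the pro-B libraries. The share over all Igh pairs was not taken there.

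No pair of the flank was called in pro-B cells over MEF in either direction (0% of all pairs were called higher and 0% lower by edgeR). The unadjusted p was under 0.05 in edgeR for 152 pairs (14.1%), against 9.1% of all tested Igh pairs. DESeq2 called 34 higher and 14 lower, and the share over all pairs was not taken there. Without pro-B replicate 1, where the pro-B arm held 1 library, edgeR called pairs in both directions, and the share over all pairs was again not taken. The smallest unadjusted p values that did not pass belonged to FOR 510 with REV 15, FOR 165 with REV 4, FOR 611 with REV 19 and FOR 14 with REV 499. FOR 165 with REV 4 had 31 and 83 reads (MEF) and 408 and 918 reads (pro-B) (log2 fold 3.66, adjusted p = 0.311 by edgeR). FOR 14 with REV 499 had no read in either MEF library, 18 and 106 (pro-B) and 216 and 238 (resting B), at least 19.1-fold higher in pro-B cells and at least 70-fold higher in resting B cells than a floor of 3 reads per MEF library. Neither difference passed (adjusted p = 0.333 and 0.0505 by edgeR).

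In resting B cells over pro-B cells 36 of the 1077 tested pairs rose and 2 fell (2.85% of all pairs were called higher and 5.28% lower by edgeR). The share that rose was near that of all Igh pairs, and the share that fell was below it. The 36 involved 23 V fragments and 10 flank fragments, and REV 1, REV 7, REV 15 and REV 19 held 6 each. In 25 of the 36 both pro-B libraries had at most 10 reads, and in 3 they had none. FOR 611 with REV 19, 2152 kb apart, had 1 and 2 reads (pro-B), 29 and 132 (MEF) and 380 and 258 (resting B), a ratio of resting B to pro-B reads of 194 with a 95% counting interval of 66.0 to 942. FOR 671 with REV 7 had 41 and 27 reads (pro-B), 81 and 152 (MEF) and 1273 and 434 (resting B) (log2 fold 4.41 ± 0.75, adjusted p = 0.0269 by edgeR). Resting B cells were highest at both pairs, without overlap, and pro-B cells lowest, below MEF. In 29 of the 36 both MEF libraries lay above both pro-B libraries. The 36 were called against pro-B cells, which favours pairs with low pro-B reads, and no share over all pairs was taken. Over the 1077 tested pairs of the flank, 63.9% had a fold above 0 in pro-B cells over MEF. No pair was called without either MEF or either resting B replicate. More rose without either pro-B replicate, where the share over all Igh pairs was not taken.

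Both pairs that fell held the flank fragment REV 4, with FOR 174 in the proximal and FOR 233 in the middle V genes. FOR 174 with REV 4, 656.5 kb apart, had 339 and 434 reads (pro-B), 51 and 29 (MEF) and 41 and 38 (resting B). Pro-B cells alone were high there, and resting B cells and MEF overlapped (log2 fold of resting B over pro-B cells -3.43 ± 0.78, adjusted p = 0.0447 by edgeR). REV 4 also joined FOR 126 in the proximal pair of most reads, with 998 and 1640 reads (MEF), 3090 and 5953 (pro-B) and 3284 and 3756 (resting B). At that pair MEF was lowest and pro-B and resting B cells overlapped.

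The flank's own fragments were then compared by their reads with the whole V array. All 16 were higher in both resting B libraries than in both MEF libraries, against 65.5% of the 84 Igh fragments outside the V array. In pro-B cells over MEF 10 of 16 were (background 26.2%), and in resting B over pro-B cells 12 of 16 (background 48.8%). REV 15 (114395287 to 114399192) had the most reads in resting B cells, at 1357 and 1429 CPM against 314 and 422 (MEF) and 469 and 836 (pro-B). FOR 14 (114394005 to 114395286), next to it, had the largest fold over MEF, 2.33, with 52.8 and 59.7 CPM (MEF), 119 and 202 (pro-B) and 271 and 294 (resting B). Both were in the order MEF, pro-B, resting B without overlap. The smallest fold over MEF was that of REV 1, the outermost fragment (0.83), followed by FOR 20, the innermost (1.08).

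REV 4 (114353716 to 114363543) differed in its order. It had 247 and 252 CPM with the V array (MEF), 794 and 902 (pro-B) and 748 and 802 (resting B). The 2 B-lineage groups overlapped and MEF lay below both, with log2 folds of 1.77 for pro-B cells and 1.64 for resting B cells over MEF and -0.13 between the B-lineage groups. Its share of the flank's reads with the V array was 15.5% (pro-B), 8.05% (MEF) and 7.77% (resting B). Its desert reads followed the same order, with log2 folds of 1.64, 0.89 and -0.76 in the same comparisons, and their part in the result was not tested. REV 7 (114367390 to 114368951) and REV 19 (114408146 to 114409002) were at the other extreme: REV 7 had 70.1 and 109 CPM (MEF), 60.4 and 174 (pro-B) and 403 and 387 (resting B), and REV 19 had 93.8 and 113, 71.9 and 173, and 442 and 463. Pro-B cells and MEF overlapped at both, and resting B cells lay above them. The fold of desert reads in resting B cells over MEF was 2.60 for REV 7, larger than its fold of 2.14 with the V array, and 1.08 for REV 19, smaller than its 2.13.

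**Figure D4:**
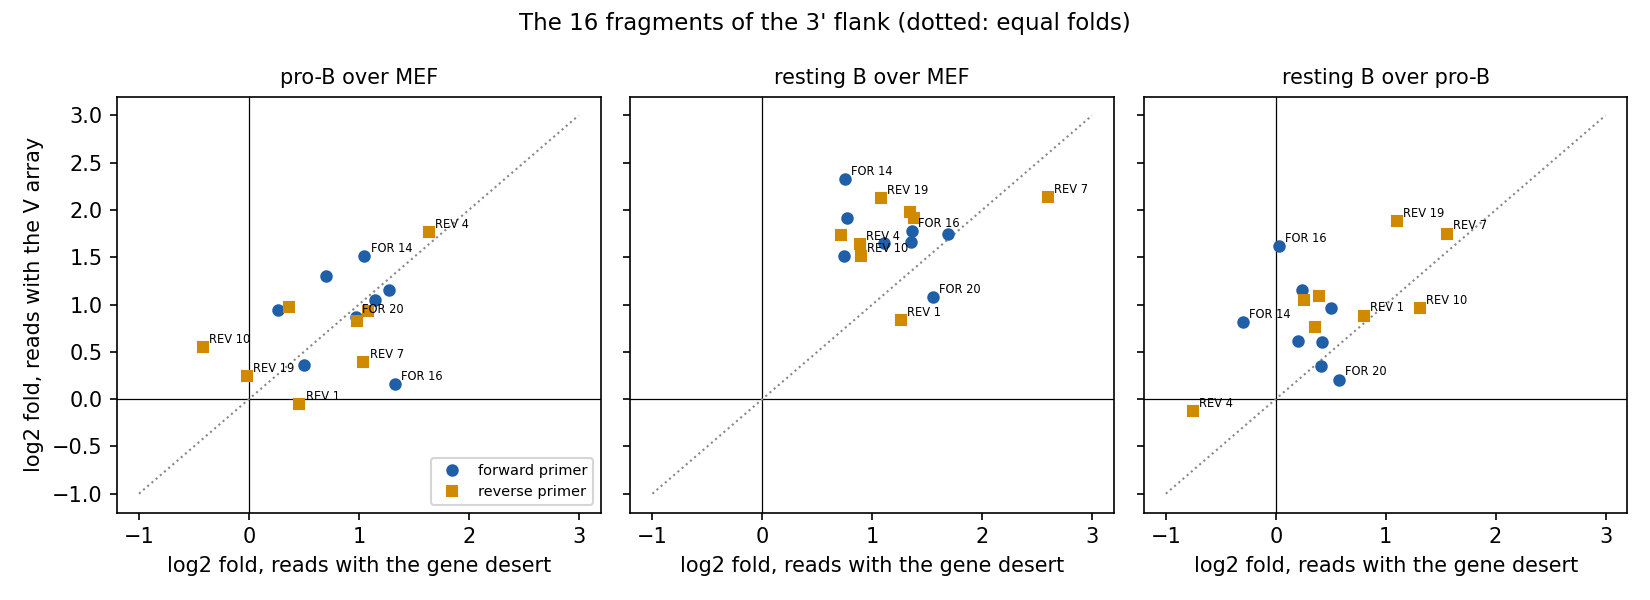
The 16 fragments of the 3′ flank: log2 fold of reads with the V array (vertical axis) against log2 fold of reads with the gene desert on another chromosome (horizontal axis), for the 3 comparisons, with circles for forward and squares for reverse primers. Desert reads are taken as a share of the library's Igh reads with the desert. All 16 lie above 0 on both axes in resting B cells over MEF, and REV 4 is highest in pro-B cells over MEF (1.77) and lowest in resting B over pro-B cells (-0.13).

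Whether the flank differs from the neighbouring regions was tested as the ratio of its reads with the V array to those of another region with the V array. Relative to the constant genes the flank gained in resting B cells over MEF (log2 1.04 ± 0.29, adjusted p = 0.00438 by limma over 5 regions) and in pro-B cells over MEF (0.94 ± 0.29, adjusted p = 0.0335), and differed little between resting B and pro-B cells (0.10 ± 0.29, adjusted p = 0.746). The gain over the constant genes was lost without either resting B replicate in the first case (adjusted p = 0.0572 and 0.0543 by limma), and in the second without MEF replicate 1 (0.206), pro-B replicate 2 (0.173) or either resting B replicate (0.118 for each). Both calls were lost with the desert offset (0.86, adjusted p = 0.0884, and 1.13, adjusted p = 0.0735, by limma), and the second also with the replicate block (adjusted p = 0.0629) and with only the 4 libraries compared (0.118). Relative to the D-J segments the gain in resting B cells over MEF was 1.28 ± 0.30 (adjusted p = 0.0013), and relative to the V-D intergenic region 2.28 ± 0.31 (adjusted p = 2.21e-05 by limma). Reads of the V-D region with the V array were 3881 and 3682 CPM (MEF), 3869 and 4210.1 (pro-B) and 2527 and 2499.5 (resting B). They were lowest in resting B cells, without overlap, and the part of deleted alleles in this was not tested.

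Relative to the adjoining 3′ regulatory region the flank's change did not pass the test in any comparison: 0.47 in pro-B cells over MEF, -0.34 in resting B cells over MEF and -0.82 in resting B over pro-B cells (adjusted p = 0.291, 0.443 and 0.119 by limma). The regulatory region's reads with the V array were 18334 and 9805 CPM (MEF), 16761 and 18047 (pro-B) and 35415 and 84327 (resting B), so its resting B replicates differed by more than the flank's 9693 and 10253. Without resting B replicate 1 the last ratio was -1.40 (adjusted p = 0.0282 by limma), and the second turned to 0.19 without MEF replicate 2 and to 0.24 without resting B replicate 2. The first was -0.05 without MEF replicate 1. With each pair given equal weight the ratios were -0.43, 1.69 and 2.13 (adjusted p = 0.0292, 1.44e-07 and 1.37e-08 by limma), the opposite direction in all 3. The median pair shows the same: 0.30 in resting B cells over MEF for the 527 tested pairs of the regulatory region against 1.76 for the flank, and -0.59 against 1.25 in resting B over pro-B cells.

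Against the level set by distance and primers, few single pairs of the flank with the V array were counted as high. A pair was counted where its standardised residual, from a model of distance and primer strength in each library, was at least 2 in both replicates. In pro-B cells and MEF 0 of the 1128 pairs were counted (background 0.374% and 0.208% of the Igh pairs over 50 kb apart), and in resting B cells 2 (0.177%, background 0.914%). FOR 216 with REV 17, 762.8 kb apart, had 565 and 521 reads (resting B), 61 and 150 (MEF) and 3 and 66 (pro-B). FOR 436 with REV 1, 1543 kb apart, had 681 and 708 reads (resting B), 126 and 405 (MEF) and 9 and 498 (pro-B). Resting B cells were highest at both, and only replicate 2 of pro-B cells came near at the second. No test goes with these counts, and with a residual of at least 3, or without primer effects, none of the pairs was counted. The residuals were scaled by a common spread over all Igh pairs of a library, near pairs included. At the second pair, 498 reads gave 1.31 in pro-B replicate 2 and 405 gave 0.59 in MEF replicate 2. Pairs of few reads can thus hardly reach 2, and the low counts do not show that specific contacts are absent.

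The pairs as a whole, however, lay above the distance trend in resting B cells and below it in the other cells. The log2 ratio of observed over expected reads, averaged over pairs and with the expectation from each library's own trend over all Igh pairs, was 0.50 and 0.54 (resting B), -0.70 and -0.58 (pro-B) and -1.40 and -1.22 (MEF). In resting B cells it was highest with the proximal V genes (0.85 and 1.03), and lowest with the middle ones in replicate 1 (0.21, against 0.50 far distal) and nearly equal in the far distal and middle ones in replicate 2 (0.30 and 0.31). In MEF it was negative in all 4 stretches, from -1.67 to -1.05. After removal of this trend the resting B over MEF folds were 2.24 (proximal), 1.41 (middle), 1.38 (near distal) and 1.48 (far distal), and all 4 passed in edgeR. The proximal V genes thus had the largest fold, where without this step the far distal ones did.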

How the data were processed

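The analysis used 6 5C libraries, 2 for each of MEF, Rag2-deficient pro-B and CD43- resting splenic B cells, with groups taken from the titles in the labels. The authors deposited, per the file headers, raw counts of valid pairs for each primer combination, uncorrected for distance, primer strength or depth; a further column is 1 throughout and was left unused. Unlisted combinations were set to 0. Novoalign and mm9 come from the submitters' processing notes, and no version of Novoalign is given in the sources used here. The counts carry no molecular identifiers, so intervals and the floor of 3 reads cover counting error only. Fragment positions are those in the primer names. No genome or annotation of mm9 was used, so no sequence and no V gene name is given.

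Igh pairs that reached 10 reads in 2 or more libraries (11940 of 12656) were tested with edgeR 4.0.16 in R 4.3.3, using TMM factors from the tested pairs, a quasi-likelihood model of cell type fitted to the 6 libraries together, and Benjamini-Hochberg adjustment over all tested pairs with a threshold of 0.05. Sums over the 55 region pairs, and over the flank for each of the 209 Igh fragments outside it, were tested likewise with those factors. Log2 ratios of sums were tested with limma 3.58.1. Standard errors were taken as the fold over the root of its F statistic, or from limma. P-values measure the spread between libraries described as biological replicates. An exact permutation of 2 against 2 libraries cannot go below 0.333, so none was used. A chi-square statistic per degree of freedom over pairs of the flank with the V array was 18.4 (MEF), 21.1 (resting B) and 61.5 (pro-B) between replicates, more than sampling noise, and each library was counted once.

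Expected reads came from each library's lowess trend of count over separation (span 0.3). Pairs above expectation used a quasi-Poisson fit of each library to a natural spline in log separation (4 df) plus primer effects. Named pairs were, per comparison, up to 5 in each direction taken by p from those past the threshold whose libraries did not overlap, with no fragment repeated; where none passed, the 2 of smallest unadjusted p in each direction; and the pair of most reads in each V stretch. Named fragments were up to 4 per direction taken by p from those past the threshold, the fragment of highest mean CPM in each stretch and the flank's own fragments; the text describes some of these. Other fragments or pairs in the text were chosen after their values were seen. The members, regions and lists were chosen with earlier results of these data known.

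The tests were checked on simulated data for resting B cells over MEF. Over 11940 pairs they recovered 2% of 4-fold and 52% of 16-fold changes with 4 false calls, and over 209 fragments 15% of 2-fold and 75% of 4-fold changes with 0 false calls. All simulated cell types shared the same spread, whereas the pro-B replicates of the data differed by more than the others. False calls under such unequal spread were not measured. Alternatives were total Igh or gene desert reads for scaling, DESeq2 1.42.0, a filter of 50 reads or none, fits of the 4 libraries under comparison, the replicate number as a block, removal of the distance trend, each pair given equal weight (limma on the mean log2 CPM), leaving out the pair of most reads or each library, and other settings of the model of expected reads. Gene desert scaling used reads between desert fragments, whereas the desert offset used reads between Igh and desert fragments. Leaving out the leading fragment, and the gene desert offset, were added after the data were seen.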

Additional observations from a re-analysis of the deposited data

How the results depend on the processing

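The rise of the flank's reads in resting B cells over MEF kept its direction in all 4 stretches under each alternative run. It lost its call with gene desert scaling in the middle V genes (1.76) and with the desert offset in the proximal (1.45), middle (1.01) and near distal (1.23) ones. The proximal call of pro-B cells over MEF was lost with total Igh reads (1.03), gene desert scaling (1.34), only the 4 libraries compared (1.19), the distance offset (1.07), equal weight for each pair (0.31) and the desert offset (1.43). DESeq2 called the middle, near distal and far distal V genes there (0.90, 0.86, 0.76), the distance offset called the far distal ones (1.07), and equal weights turned their sign (-0.085). In resting B over pro-B cells the far distal call was lost with gene desert scaling (1.68), the distance offset (0.41) and the desert offset (0.97). The proximal V genes passed there with DESeq2 (0.71), the distance offset (1.16), equal weights (1.49) and without the pair of most reads (0.79), the near distal with DESeq2 (0.85) and equal weights (1.81), and the middle with equal weights (1.26), while the desert offset turned the middle ones to -0.012. The causes were not tested.

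Leaving out 1 library at a time, the log2 folds from proximal to far distal ranged from 0.78 to 1.34, 0.44 to 1.19, 0.18 to 1.27 and 0.46 to 0.95 in pro-B cells over MEF, from 1.56 to 1.99, 1.22 to 1.43, 1.52 to 1.75 and 2.09 to 2.42 in resting B cells over MEF, and from 0.42 to 0.98, 0.13 to 0.88, 0.36 to 1.46 and 1.29 to 1.78 in resting B over pro-B cells. V fragments called higher ranged from 0 to 74, 33 to 124 and 11 to 77 in the same order, and lower from 0 to 1, 0 to 1 and 0 to 3. Pairs called higher ranged from 0 to 220, 0 to 393 and 0 to 436, and lower from 0 to 200, 0 to 1 and 0 to 36. The ratio of far distal to proximal reads ranged from -0.41 to -0.31, 0.40 to 0.56 and 0.76 to 0.91, and the ratio to the 3′ regulatory region from -0.053 to 1.00, -0.93 to 0.24 and -1.40 to -0.23.

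V fragments called higher in pro-B cells over MEF were 36 with DESeq2, 10 with the distance offset, 7 with the desert offset, 26 with the replicate block, and 0 with total Igh reads, gene desert scaling, equal weights and only the 4 libraries. In resting B cells over MEF they were 70 with total Igh reads, 26 with gene desert scaling and 37 with the desert offset, and 1 fell with DESeq2, the distance offset, the replicate block and only the 4 libraries. In resting B over pro-B cells they were 21 with the distance offset, 103 with equal weights, 1 with the desert offset, 0 with gene desert scaling, 18 with total Igh reads and 56 with the replicate block; 1 fell with DESeq2 and the distance offset and 2 with the replicate block.

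For all counts of pairs or V fragments under the alternatives, here and above, no share over all Igh pairs or fragments was taken. Pairs called with DESeq2 were 34 higher and 14 lower, 176 and 1, and 182 and 7 in the 3 comparisons. In resting B cells over MEF 7 rose with gene desert scaling, 6 with no filter, 0 with the replicate block, and 394 rose and 1 fell with only the 4 libraries. In resting B over pro-B cells 64 rose with gene desert scaling, 6 with the replicate block and 0 with only the 4 libraries, and 0 fell with gene desert scaling, total Igh reads, the distance offset, the replicate block and only the 4 libraries. Replicate numbers did not pair the libraries: deviations of same-numbered libraries correlated at -0.03, 0.06 and -0.01, and the replicate block changed no call of the summed reads (for example 2.26 for the far distal V genes in resting B cells over MEF).

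With the distance offset the ratio of far distal to proximal reads of the flank was 0.028, -0.76 and -0.79, for the 3′ regulatory region -0.58 in resting B cells over MEF and -0.25 in resting B over pro-B cells, and for the constant genes 0.12, -0.13 and -0.24, all with the sign turned and none past the threshold. The ratio of the flank to the 3′ regulatory region turned with equal weights (-0.43, 1.69 and 2.13) and passed with the desert offset in resting B over pro-B cells (-1.70). Its ratio to the constant genes in resting B over pro-B cells, 0.10, turned with the distance offset (-0.051), with 1 library left out (-0.021 to 0.21, lowest without pro-B replicate 1) and with the desert offset (-0.27), and its ratio to the flank beyond the V array turned with the desert offset in pro-B (-1.09) and resting B cells (-0.40) over MEF. Pairs above expectation in resting B cells fell to 0 with a residual of 3 and without primer effects. The median fold of all pairs, -0.03 to 0.03 with TMM, was up to 0.45 with gene desert scaling and up to 0.28 with total Igh reads. Few single pairs with a 4-fold change were recovered in the simulated data for the fit of all 6 libraries.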
